A study of Mus musculus with 6 samples.

Results

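Lactose and the ions, water, phosphate and zinc of milk are made or moved by a small set of enzymes and transporters, and 10 of their genes were followed here in mammary luminal progenitor cells with and without *Robo1*. The genes were chosen by symbol: *B4galt1*, *Ugp2* and *Slc35a2* for lactose synthesis, *Slc2a1* for glucose, *Slc12a2*, *Aqp5* and *Slc34a2* for sodium, potassium, chloride, water and phosphate, *Slc30a4* and *Slc30a2* for zinc, and *Atp2b2* for calcium. All 10 were among the 18537 known-gene clusters of the deposited table, and 9 had enough reads to be tested. Cells were sorted as Lin-CD24loCD29+CD61+ from mammary glands of adult nulliparous Robo1+/+ and Robo1-/- mice, bred from Robo1+/- parents, and poly(A)+ RNA was sequenced from 3 libraries of each genotype with 2 animals pooled in each. Robo1-/- mice were homozygous for the Robo1 tm1Matl allele in every cell of the animal, and the labels call the genotypes littermates; no treatment or strain is named in the labels. Whether *Robo1* genotype changes the expression of milk synthesis genes in these cells before any pregnancy is the question that this comparison addresses.

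Lactose, the main sugar of milk, is joined from glucose and UDP-galactose in the Golgi of the secretory cell. The galactosyltransferase B4GALT1 makes it only when bound to alpha-lactalbumin, the product of *Lalba*, and UGP2 makes the UDP-glucose from which UDP-galactose is formed. Lactose draws water into milk, while calcium, phosphate and zinc are loaded by pumps and carriers of the Golgi, vesicles and plasma membrane, many of which are known to increase in late pregnancy and lactation. The gland of a nulliparous mouse is not lactating, and luminal progenitors are the cells from which its secretory lineage is formed.

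Values are normalized read counts, that is reads of a gene divided by 1 scaling factor per library, and whole reads could be recovered from them. Libraries held from 9727191 to 17433868 recovered reads. *Robo1*, the targeted gene, had values of 289, 574 and 541 in the Robo1+/+ libraries and 130, 214 and 177 in the Robo1-/- libraries, without overlap (log2 fold change −1.39, SE 0.36, unadjusted p = 0.006, limma adjusted p = 0.86), so transcripts of the locus were still present. All 10 luminal progenitor markers examined were detected, among them *Kit* and *Elf5*, and their summed normalized read count lay between 118650 and 149426 in Robo1+/+ libraries and between 65100 and 160360 in the Robo1-/- libraries. The 65100 belongs to Robo1-/- replicate gh18, whose values fell with the GC content of transcripts. The 10 markers of mature luminal cells, *Prlr* and *Areg* foremost, summed to 46982 to 60784 in Robo1+/+ libraries, against 63917 to 76353 in the Robo1-/- libraries, without overlap, while the 10 basal markers summed to at most 2548 in any library. In a sum chosen after seeing the data, without the 2 most abundant genes, *Prlr* and *Areg*, the genotypes overlapped through gh18 alone. The other 8 summed to 13671, 18564 and 17703 in Robo1+/+ libraries, against 24584, 23963 and 13601 in the Robo1-/- libraries. Thus gh06 and gh12 stayed above every Robo1+/+ library, while gh18 was the lowest. *Cited1* (log2 fold change −1.01) and *Wnt4* (−2.60) had negative values, which became 0.20 and −0.65 without gh18. The leukocyte sum was 76.0 to 157 in Robo1+/+ and 44.0 to 55.5 in Robo1-/- libraries, with *Ptprc* and *Tyrobp* under 3 reads in each. The endothelial sum was 616 to 2216 in Robo1+/+ libraries and 168 to 1119 in the Robo1-/- libraries, highest in gh03, although *Cdh5* and *Cldn5* were under 3 reads in each.

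Because the values of gh18 followed base composition, the coding sequences of 4 members that differ in it are shown first, with G and C in capitals and A and T in lower case. Each is a stretch of 150 bases from the middle of the coding sequence of the longest coding transcript in GENCODE release M1 (NCBI build 37, the mm9 assembly), read 5′ to 3′ on the coding strand. *Aqp5* lies on chromosome 15 from 99421280 to 99425260 and *Slc2a1* on chromosome 4 from 118781316 to 118809935, both on the plus strand. *B4galt1* lies on chromosome 4 from 40751635 to 40801038, *Slc30a4* on chromosome 2 from 122506969 to 122528399 and *Ugp2* on chromosome 11 from 21221141 to 21271204, all on the minus strand.
Aqp5: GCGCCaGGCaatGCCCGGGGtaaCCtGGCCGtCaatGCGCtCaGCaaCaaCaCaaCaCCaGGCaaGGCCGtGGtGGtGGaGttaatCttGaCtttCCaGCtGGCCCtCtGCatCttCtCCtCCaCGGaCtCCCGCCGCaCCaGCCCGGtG
B4galt1: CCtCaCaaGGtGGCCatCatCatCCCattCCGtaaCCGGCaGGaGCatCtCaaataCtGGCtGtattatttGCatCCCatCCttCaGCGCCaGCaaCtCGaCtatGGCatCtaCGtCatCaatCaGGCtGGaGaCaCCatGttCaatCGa
Slc30a4: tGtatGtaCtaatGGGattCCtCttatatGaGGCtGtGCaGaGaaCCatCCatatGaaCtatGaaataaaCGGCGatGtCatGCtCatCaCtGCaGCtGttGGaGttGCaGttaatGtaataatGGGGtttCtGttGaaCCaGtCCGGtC
Ugp2: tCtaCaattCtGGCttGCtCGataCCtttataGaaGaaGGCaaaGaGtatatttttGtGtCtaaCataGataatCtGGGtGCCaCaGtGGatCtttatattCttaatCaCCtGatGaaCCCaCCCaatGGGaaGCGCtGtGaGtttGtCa
Capitals make up 62.7% of the *Aqp5* stretch, 50% of *B4galt1*, 42.7% of *Slc30a4* and 40.0% of *Ugp2*. Over the whole longest transcript, GC content was 61.77% for *Aqp5*, 55.16% for *Slc2a1*, 50.62% for *B4galt1*, 41.19% for *Slc30a4* and 39.06% for *Ugp2*, against a median of 50.4% over the tested genes. The GC correction named below removed, in each library, the smooth trend of gene values on this percentage. None of the 10 transcripts shares a 75-base sequence with a coding transcript of a different gene. The exons of *Slc2a1*, *Slc30a4* and *Ugp2* overlap a noncoding transcript on the opposite strand (Gm12868, 4930417H01Rik and Gm12043). The library kit does not mark strand, so the reads of such partners cannot be told apart.

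**Figure D1:**
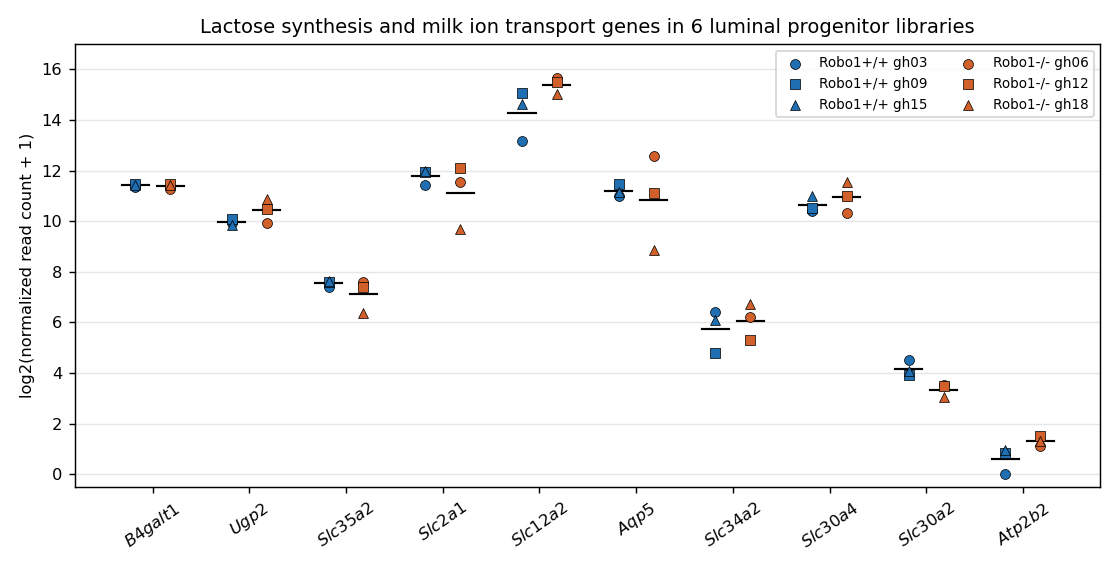
Normalized read counts of the 10 genes as log2(value + 1) in each of the 6 libraries, with a bar at the mean of each genotype. The 6 points of *B4galt1* nearly coincide, those of *Aqp5* span from 460 to 6041 normalized reads, and *Atp2b2* lies near 0 in every library.

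Measured per length, as reads per kilobase of transcript per 1000000 recovered reads (RPKM), the 10 genes spanned almost the whole range of expression in these cells. *Slc12a2*, the sodium-potassium-chloride cotransporter, stood first with a level of 369 ± 164 (SD, n = 6 libraries), above 98.9% of 12542 tested genes with a coding transcript. The water channel gene *Aqp5* followed at 124 ± 84.5, the glucose carrier gene *Slc2a1* at 88.0 ± 36.6 and *B4galt1* at 49.7 ± 3.01. *Aqp5* was above *Slc2a1* in 3 of the 6 libraries, so these neighbours did not differ beyond their spread. *Ugp2* had a level of 32.7 ± 9.62 and *Slc30a4* of 24.7 ± 8.24, each below its predecessor in 5 of 6 libraries. The UDP-galactose carrier gene *Slc35a2* came next at 3.97 ± 1.08, the phosphate carrier gene *Slc34a2* at 1.14 ± 0.489 and the zinc carrier gene *Slc30a2* at 0.308 ± 0.127, each below the gene before it in 6 of 6 libraries. *Atp2b2* was last, with 6 reads over all 6 libraries.

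Each member was then set beside other genes of its family, again per length. *Slc2a1*, *B4galt1*, *Slc12a2* and *Aqp5* each had the highest level of their family in every library. *Slc2a1* held 64.2% of the summed mean level of 9 glucose carriers, ahead of *Slc50a1* with an RPKM of 34.8 ± 13.0. *B4galt1* held 58.2% of that of the 7 beta-1,4-galactosyltransferase genes, 2.02-fold above *B4galt3*, and *Slc12a2* held 96.0% of that of 4 cation-chloride cotransporters. *Aqp5* was 2.43-fold above *Aqp3* and held 67.1% of the aquaporin sum. The other members were not the leading gene of their family. *Slc30a5* (30.3 ± 6.15), a zinc carrier of the early secretory pathway, lay above *Slc30a4* in 6 of 6 libraries, and *Slc30a2* ranked 7 of 8 zinc efflux carriers. *Slc35a2* was the lowest of 3 nucleotide sugar carriers, below *Slc35a1* at 29.4 ± 8.29 and *Slc35a3* at 22.3 ± 5.74. Among phosphate carriers, *Slc20a1* (119 ± 41.2) held 83.4% of the sum and *Slc34a2*, the sodium-phosphate cotransporter of lactating epithelium, held 0.796%. Calcium pump transcripts came mostly from *Atp2a2* of the endoplasmic reticulum (160 ± 20.7), *Atp2b1* of the plasma membrane (46.4 ± 13.6) and *Atp2c1* of the Golgi (46.3 ± 8.85), the last pair being level.

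**Figure D2:**
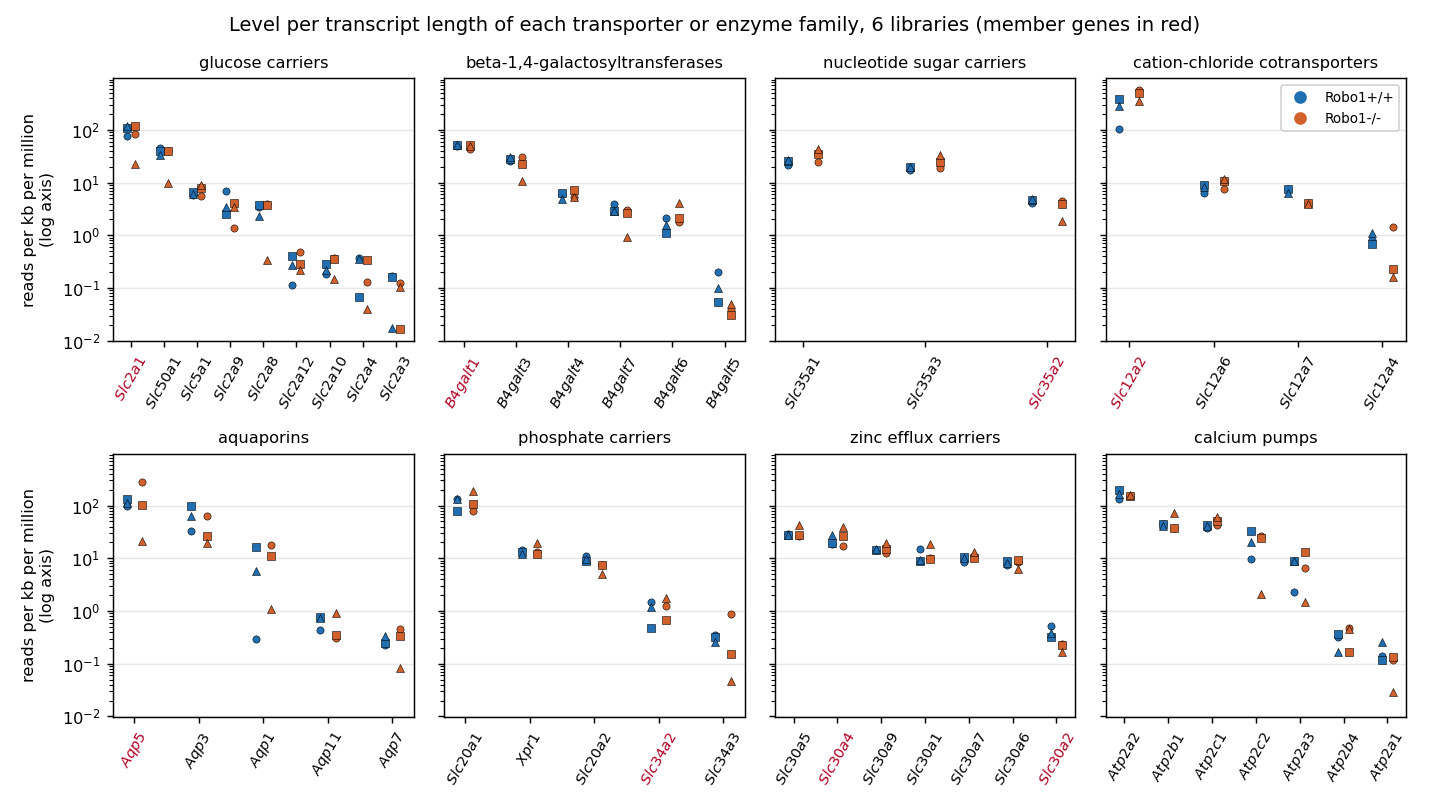
RPKM (log axis) for the genes of 8 families, with 1 point per library and symbols by replicate as in the plot of normalized read counts; genes with no read in some library, *Atp2b2* among them, are not drawn. *Slc2a1*, *B4galt1*, *Slc12a2* and *Aqp5* lead their families, whereas *Slc35a2*, *Slc34a2* and *Slc30a2* lie in the lower part of theirs.

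Genotypes were compared with limma, a linear model of log2(value + 1) that shares its estimate of spread across genes. Between them, 0 of 13692 tested genes (0%) reached an adjusted p under 0.05 in limma, and 231 of them (1.69%) were under 0.05 before adjustment. On the recovered reads, edgeR called 0 genes and DESeq2 called 1, with 221 and 335 genes at an unadjusted p under 0.05. None of the 9 tested members was called by limma, edgeR or DESeq2, and 0 had an unadjusted p under 0.05 in limma. Their median log2 fold change, Robo1-/- over Robo1+/+, was −0.03, beside 0.00 over all tested genes, with 5 negative and 4 positive values. The genotypes did not overlap, with Robo1-/- lower, for 4.58% of all tested genes and, with Robo1-/- higher, for 4.83%. Among the 9 tested members this was so for 1 in the lower direction, *Slc30a2*, which passed the filter on low reads only through its Robo1+/+ libraries, so that nothing is read from its separation, and for 0 in the higher direction. With 3 libraries in each group, the exact permutation test of a single gene cannot go below a two-sided p of 0.1. The libraries are separate pools of animals, so these p-values measure the spread between pools.

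*B4galt1*, the catalytic subunit of lactose synthase, was the steadiest of the members. Its normalized read counts were 2636, 2839 and 2767 in the Robo1+/+ libraries (gh03, gh09 and gh15, the order used throughout), against 2465, 2854 and 2765 in the Robo1-/- libraries (gh06, gh12 and gh18). The genotypes overlapped, and the highest library exceeded the lowest 1.16-fold. The within-genotype SD of 0.09 on the log2 scale was smaller than that of all but 0.986% of tested genes. The log2 fold change was −0.03 (SE 0.18, adjusted p = 0.96 from limma), and its 95% confidence interval extends from a 0.73-fold to a 1.31-fold level. The sign turned without Robo1-/- replicate gh06, where the log2 fold change was 0.03. *Lalba*, whose product turns B4GALT1 into lactose synthase, had normalized read counts of 1323, 1748 and 1367 in Robo1+/+ libraries, against 2568, 3119 and 2044 in the Robo1-/- libraries, with no overlap. Its log2 fold change was 0.79 (SE 0.24, unadjusted p = 0.012, adjusted p = 0.86 from limma), and per length *Lalba* was 2.68-fold to 3.35-fold above *B4galt1* in Robo1+/+ libraries, against 4.02-fold to 5.94-fold above it in the Robo1-/- libraries.

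*Ugp2*, which makes UDP-glucose, had normalized read counts of 966, 1087 and 932 in Robo1+/+ libraries, against 961, 1421 and 1898 in the Robo1-/- libraries. Replicate gh18 was the highest and gh06 lay within the Robo1+/+ range. The log2 fold change of 0.47 (SE 0.28, unadjusted p = 0.14, limma adjusted p = 0.86) was 0.11 once GC content was corrected for and 0.24 without gh18. Without gh06 it was 0.73, with an unadjusted p of 0.026 and an adjusted p of 0.55 from limma. *Slc35a2*, which carries UDP-galactose into the Golgi (chromosome X from 7461167 to 7471618), had 170, 193 and 200 normalized reads in Robo1+/+ libraries, against 194, 166 and 81.7 in the Robo1-/- libraries. Only gh18 lay apart, and the log2 fold change of −0.44 (SE 0.38, adjusted p = 0.86 from limma) was −0.06 without it and −0.15 with the GC correction.

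*Slc2a1* encodes GLUT1, through which glucose enters the cell. Normalized read counts of 2723, 3926 and 4052 in Robo1+/+ stood beside 2996, 4335 and 824 in Robo1-/- libraries. The genotypes overlapped apart from gh18, which was 4.30-fold below the mean of the other 5 libraries on the log2(value + 1) scale. For *Slc2a1* the log2 fold change was −0.67 (SE 0.59, adjusted p = 0.86 from limma) with all 6 libraries, −0.30 with the GC correction and 0.04 without gh18. After the GC correction, gh18 was still 1.05 below the other 5 libraries on the log2 scale. The level of *Slc2a1* per length was 2.90-fold to 4.48-fold that of *Ugp2* in 5 libraries but 0.447-fold in gh18.

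*Slc12a2* encodes NKCC1, which brings sodium, potassium and chloride into secretory epithelium. It had the largest difference between genotype means among the tested members. Its normalized read counts were 9214, 34256 and 25032 in the Robo1+/+ libraries, against 51402, 46354 and 33440 in the Robo1-/- libraries. The groups overlapped only in that gh18 lay below gh09, and gh03 stood 4.0-fold below the mean of the other 5 libraries on the log2(value + 1) scale. By normalized read count the gene ranked 4, 6 and 16 among all clusters in the Robo1-/- libraries, 11 and 21 in gh09 and gh15, and 172 in gh03. The log2 fold change was 1.11 (SE 0.49, 95% confidence interval −0.05 to 2.27, unadjusted p = 0.058, limma adjusted p = 0.86), and the exact permutation test gave a two-sided p of 0.20. It was 0.56 without gh03 (unadjusted p = 0.10 from limma) and 1.29 without gh18 (unadjusted p = 0.047 from limma, adjusted p = 0.94). With the GC correction it was 0.87 (unadjusted p = 0.15 from limma). In GC-corrected log2 values, gh18 (14.50) lay below both gh09 (15.19) and gh15 (14.72). Fewer cells of a type and less RNA per cell cannot be told apart in such pools. The summed mature luminal markers were lowest in gh03 (46982) and highest in gh06 (76353), as *Slc12a2* was. Without *Prlr* and *Areg*, gh06 stayed highest (24584), but gh18 (13601) was lowest, just below gh03 (13671). Among the luminal progenitor markers *Aldh1a3*, *Itgb3* and *Ltf* were lowest in gh03 while *Kit* and *Elf5* were highest there. The part of cell composition in the *Slc12a2* difference was not tested.

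*Aqp5* encodes a water channel of glandular epithelium and varied most. Its normalized read counts were 2023, 2851 and 2306 in Robo1+/+ libraries, against 6041, 2200 and 460 in the Robo1-/- libraries. The highest and the lowest value were both Robo1-/-, 13.1-fold apart, and the within-genotype SD of 1.33 on the log2 scale exceeded that of 94.7% of tested genes. Its log2 fold change of −0.37 (SE 0.84, adjusted p = 0.90 from limma) was −1.23 without gh06 (unadjusted p = 0.097 from limma), but turned to 0.62 without gh18 and to 0.62 with the GC correction (unadjusted p = 0.050, adjusted p = 1.00 from limma). GC-corrected log2 values were 10.50, 10.93 and 10.65 in Robo1+/+ libraries, against 11.89, 10.99 and 11.05 in the Robo1-/- libraries, which no longer overlapped, although gh09, gh12 and gh18 lay close together. DESeq2 and edgeR on the recovered reads, without a GC correction, each gave 0.28.

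*Slc34a2*, on chromosome 5 from 53429321 to 53462903, encodes a sodium-phosphate cotransporter. Its normalized read counts were low, at 84.0, 26.6 and 66.6 in Robo1+/+ libraries, against 72.5, 38.5 and 104 in the Robo1-/- libraries. The ranges overlapped almost wholly. Its log2 fold change of 0.31 (SE 0.57, adjusted p = 0.89 from limma) became −0.17 without Robo1+/+ replicate gh09 and −0.01 without gh18.

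The zinc carriers of the milk secretory pathway differed widely in abundance. *Slc30a4* encodes ZnT4, whose loss is known to give the zinc-poor milk of the lethal milk mouse. Its normalized read counts were 1365, 1458 and 2023 in Robo1+/+ libraries, against 1283, 2012 and 3016 in the Robo1-/- libraries. The genotypes overlapped, and gh18 was the highest. Its log2 fold change of 0.32 (SE 0.35, adjusted p = 0.86 from limma) was 0.00 with the GC correction and 0.01 without gh18. *Slc30a2*, on chromosome 4 from 133899096 to 133910399, encodes ZnT2, which loads zinc into vesicles. It had 17, 18 and 17 reads in the Robo1+/+ libraries and 9, 11 and 5 in the Robo1-/- libraries, or 21.6, 14.1 and 15.9 against 10.4, 10.1 and 7.30 normalized reads. All Robo1-/- values were lower, at 53.7% of the Robo1+/+ mean. The gene passed the filter on low reads only through its Robo1+/+ libraries, which favours a lower Robo1-/- value, so its log2 fold change of −0.82 (SE 0.40) is given as a description, as are −0.62 with the GC correction and −0.68 without gh18. Counting error alone leaves the 5 reads of gh18 with an exact 95% Poisson interval of 1.62 to 11.7, and the 18 reads of gh09 with one of 10.7 to 28.4. Per length, *Slc30a4* was 36.5-fold to 73.3-fold above *Slc30a2* in Robo1+/+ libraries, against 71.6-fold to 239-fold above it in the Robo1-/- libraries. The 239-fold value was that of gh18 and rests on its 5 *Slc30a2* reads, and in gh12 the ratio was 115-fold. Because of the filter, this ratio too is given as a description.

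*Atp2b2*, on chromosome 6 from 113695663 to 113992607, encodes the plasma membrane calcium pump PMCA2 that carries most calcium into milk. It had 0, 1 and 1 reads in Robo1+/+ libraries, against 1, 2 and 1 in the Robo1-/- libraries. No library reached 3 reads, taken as the smallest number detected, which corresponds to normalized values between 2.35 and 4.38. Expression of the gene was not detectable at this depth in either genotype, and no fold change is given.

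**Figure D3:**
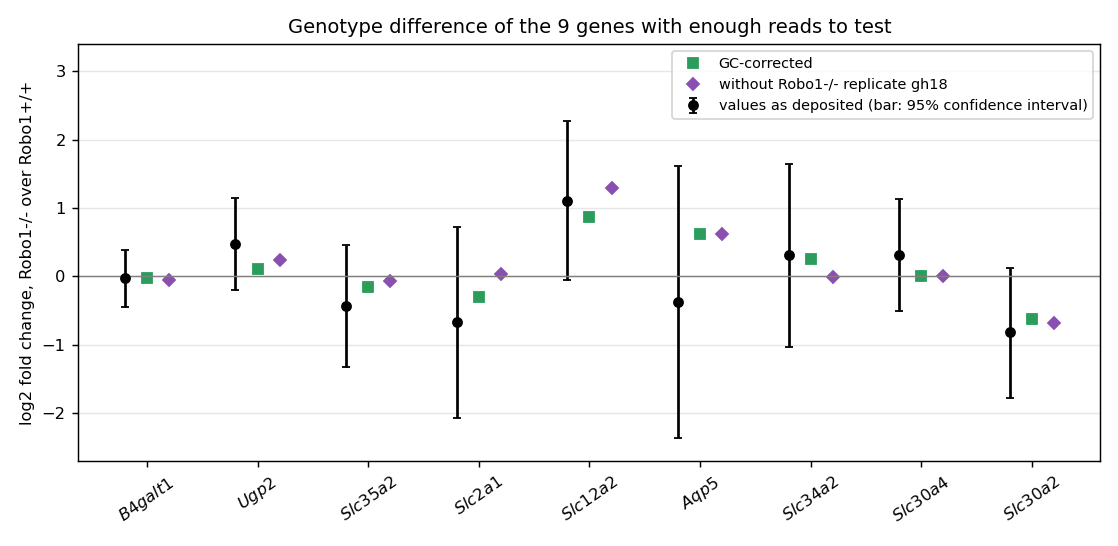
Log2 fold change, Robo1-/- over Robo1+/+, of the 9 tested genes from limma, with the values as deposited (circles, bars of the 95% confidence interval), after the GC correction (squares) and without Robo1-/- replicate gh18 (diamonds). All 9 intervals include 0; *Slc12a2* reaches from −0.05 to 2.27 and *B4galt1* from −0.45 to 0.39.

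The AT-rich members were above the other libraries in gh18 and the most GC-rich ones below them. Over 12542 tested genes, the log2 difference between gh18 and the average of its 5 counterparts decreased as GC content increased (rank correlation rho = −0.81 across genes, which are not independent replicates), whereas rho was between 0.17 and 0.60 in the other libraries. Its median was 0.92 among the tenth of genes with the lowest GC content and −2.28 among the tenth with the highest. For the AT-rich members *Ugp2* and *Slc30a4*, shown above, the deviation was 0.84 and 0.92, and for *B4galt1* it was 0.03. It was −2.10 for *Slc2a1* and −2.61 for *Aqp5*, and −1.16 for *Slc35a2*, of which 54.30% of bases are G or C. *Slc34a2*, near the median GC content, was at 0.95 and *Slc12a2*, with 44.22% G and C, at 0.23. With the GC correction the deviation was between −0.40 and 0.10 for 7 of the 9 tested members, and reached 0.85 for *Slc34a2* and −1.05 for *Slc2a1*.

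**Figure D4:**
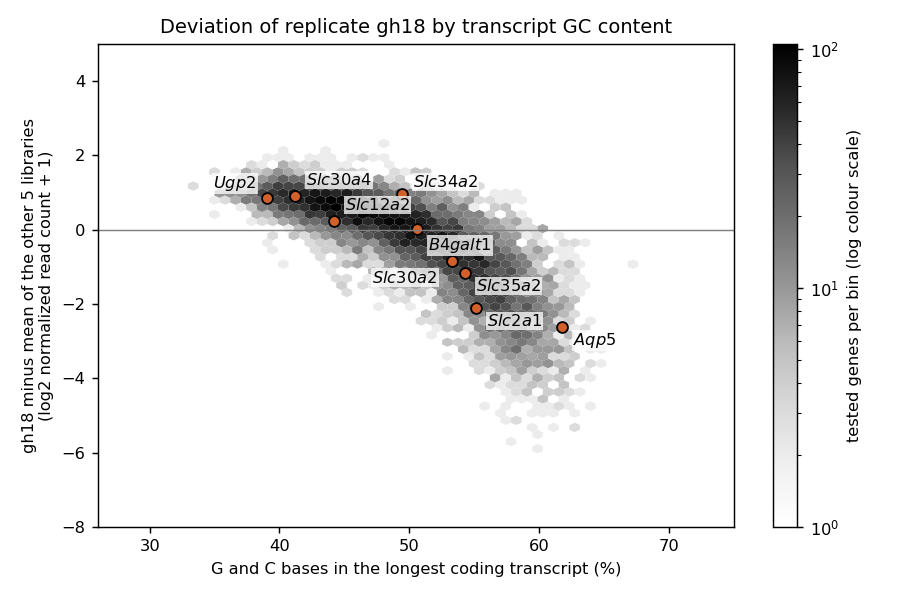
How far gh18 lay from the mean of the 5 remaining libraries (log2) against the GC content of the longest coding transcript, with the 12542 tested genes as shaded bins and the 9 tested members as points. The cloud falls with GC content; *Ugp2* and *Slc30a4* lie above 0, *B4galt1* at 0, and *Slc2a1* and *Aqp5* far below it.

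A wider list of 125 genes of the same processes held 99 tested genes, of which 4 were lower and 1 was higher in Robo1-/- libraries at an unadjusted p under 0.05, beside 1.69% of all tested genes in either direction, and 0 at an adjusted p under 0.05 in limma, edgeR or DESeq2. Genotypes did not overlap for 7 of the 99 in the lower direction and 3 in the higher, beside 4.58% and 4.83% of all tested genes. Their median log2 fold change was −0.05. The 4 lower genes were *Slc12a7*, a potassium-chloride cotransporter (log2 fold change −0.76, SE 0.22), *Slc39a4*, a zinc importer (−0.98, SE 0.34), *Slc11a2*, an iron importer (−0.61, SE 0.22), and *Atp7b*, a copper pump (−2.80, SE 1.12). *Clca1*, of a chloride channel regulator family whose mouse members are close copies, was the higher gene (1.2, SE 0.38), with 338, 834 and 806 normalized reads in Robo1+/+ libraries, against 1172, 1551 and 1507 in the Robo1-/- libraries. All 5 had an adjusted p of 0.86 from limma and are among those without overlap; with the GC correction *Slc39a4* and *Slc12a7* overlapped. With the GC correction, *Slc11a2* (−0.61) and *Clca1* (0.94) kept an unadjusted p under 0.05 (0.013 and 0.039 from limma), while *Slc39a4* was at −0.39, *Slc12a7* at −0.44 and *Atp7b* at −2.58. *Atp7b* varied from 145 to 520 normalized reads in Robo1+/+ libraries and from 4.58 to 110 in the Robo1-/- libraries.

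By process, 0 of 24 tested genes of glucose and galactose metabolism, 0 of 17 of calcium handling and 0 of 3 of phosphate transport had an unadjusted p under 0.05, against 3 of 27 for zinc and other metals, all lower, and 2 of 28 for sodium, potassium, chloride and water. Over all tested genes the share was 1.69%, and with the GC correction the last pair of counts became 1 of 27 and 1 of 28. The median log2 fold change of the glucose and galactose genes was −0.28, beside −0.07 after correction for GC content and 0.11 when gh18 was left out. The most abundant of them per length, the glycolytic enzymes *Gpi1* (log2 fold change −0.46, SE 0.42) and *Hk1* (−0.13, SE 0.31), were at −0.03 and 0.37 with the GC correction. *Atp2a2* (−0.04, SE 0.22) and the Golgi calcium-binding protein gene *Nucb1* (−0.63, SE 0.57) were the most abundant calcium genes, and *Slc20a1* (0.10, SE 0.38) and *Xpr1* (0.20, SE 0.25), a phosphate exporter, the most abundant phosphate genes. The zinc-binding metallothionein genes *Mt1* (−1.32, SE 0.96) and *Mt2* (−1.56, SE 1.02) led the metal genes in level, and both were lowest in gh18, at 123 and 117 normalized reads. In the last group the chloride channel gene *Ano1* (−0.14, SE 0.29) was among the most abundant. The limma adjusted p was at least 0.86 for these 9 genes.

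Transcripts of *Csn2*, *Csn1s1* and *Csn1s2a* varied widely between libraries of a genotype, with within-genotype SDs of 1.99, 1.51 and 1.33 on the log2 scale. *Csn3* varied less (0.30). The 9 tested members were compared with the mean of these caseins across the 6 libraries. The mean log2(value + 1) of *Csn1s1*, *Csn2*, *Csn1s2a* and *Csn3* was 13.17, 10.92 and 11.71 in Robo1+/+ libraries, against 10.69, 10.54 and 12.75 in the Robo1-/- libraries, highest in gh03 and gh18. *Csn3* departed from this mean, with 7755, 8119 and 9771 normalized reads in Robo1+/+ libraries, against 11376, 19142 and 16669 in the Robo1-/- libraries. Like *Slc12a2* it was lowest in gh03, and its own relation to *Slc12a2* was not tested. *Slc12a2* ran opposite to the casein mean, with Pearson's r = −0.80 (exact permutation p = 0.019, adjusted p = 0.17 over 9 relations, n = 6) and Spearman's rho = −0.89 (exact permutation p = 0.033, adjusted p = 0.30). This relation did not pass the correction. Its r was −0.98 with the GC correction, and −0.94 over the 4 libraries left without gh03 and gh18, the farthest from the median. Of those 4, gh09 and gh15 (Robo1+/+) had a higher casein mean and lower *Slc12a2* than gh06 and gh12 (Robo1-/-). The correlation pools both genotypes, so in those 4 libraries casein level and genotype cannot be told apart. Among the other 8 members r lay between −0.64 for *Aqp5* and 0.71 for *Slc34a2*, with adjusted exact permutation p-values of at least 0.36. *B4galt1* had r = −0.06. The 3 libraries of a genotype are too few for a correlation within it, and depth and base composition are shared by all points of a library.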

How the data were processed

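Poly(A)+ RNA of sorted luminal progenitors was measured in 6 libraries, 3 of each genotype as the labels give it. The values deposited by the authors are a normalized signal: reads counted per known-gene cluster and divided by 1 size factor per library. According to the methods, the authors trimmed reads to 75 bases, dropped those matching repeat elements with bowtie2, aligned the remainder to NCBI37/mm9 with TopHat and used DESeq2 to normalize. The labels' processing notes list Bowtie, TopHat, SAMtools and DESeq. The counting tool and treatment of reads with several matches are not given in the sources used here.

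The value of 1 read was estimated in each library, and 100% of the values of every library were whole reads within 0.01. Since the values are normalized, log2(value + 1) was fitted in limma 3.58.1 (R 4.3.3) with the empirical Bayes trend, and p-values were adjusted by Benjamini-Hochberg over the 13692 genes that passed filterByExpr of edgeR 4.0.16 (minimum count 10, minimum total 15) on the recovered reads. edgeR's quasi-likelihood test and DESeq2 1.42.0 were run on the recovered reads. Fold changes of low genes are understated by the added 1. Symbols were matched to GENCODE release M1 for 16513 clusters (89.1%), 127 of them through an older symbol in RefSeq. The GC correction subtracted a lowess curve (span 0.3) fitted on transcript GC content to the differences between a gene's value and its average across libraries, and covers 12542 (91.6%) of the tested genes. Levels use the longest coding transcript. Fits and the GC correction were tested on simulated data.

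The members and lists were chosen with earlier results of these data known. Genes named are the members, *Robo1*, caseins and *Lalba*, the related genes with an unadjusted p under 0.05, and the 2 most abundant related genes of each process, of which 1 is not reported here; family members, markers and others were named after their values were seen. Intervals on reads cover only the error of counting, and reads were not collapsed to molecules. Alternatives were TMM scaling, voom with library weights, other filters and pseudocounts, the GC correction and each library left out in turn.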

Additional observations from a re-analysis of the deposited data

How the results depend on the processing

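Across 15 alternatives each, *Slc12a2* (0.56 to 1.5), *Slc35a2* (−0.68 to −0.06) and *Ugp2* (0.11 to 0.73) kept the sign of their log2 fold change, while *Slc30a4* (0.00 to 0.63) was at 0.00 with the GC correction. The range of *Slc30a2* (−0.95 to −0.62) is given as a description only. That gene passed the filter on low reads only through its Robo1+/+ libraries, which favours a negative sign. *Slc2a1* was likewise at 0.00 with voom and library weights. The sign turned for *Slc2a1* in the range over single libraries left out (−1.16 to 0.04), for *Slc34a2* (voom −0.12; libraries left out −0.17 to 0.70), for *Aqp5* (DESeq2 0.28, edgeR 0.28, voom 0.15, GC correction 0.62; libraries left out −1.23 to 0.62) and for *B4galt1* (libraries left out −0.07 to 0.03). Genes at an unadjusted p under 0.05 numbered 231, but 415 with all genes that had a read, 1641 with voom and 117 to 903 with a library left out; DESeq2 called 1 gene at an adjusted p under 0.05. Of the members, 2 had an unadjusted p under 0.05 with voom (*Slc12a2* and *Ugp2*, adjusted p = 0.37 and 0.40 from voom with library weights) and 0 to 1 with a library left out. Related genes numbered 5, but 2 with the GC correction, 17 with voom and 2 to 13 with a library left out. No cause was tested. Dividing by the mean length of coding transcripts moved the level of *Slc2a1* to 176, *B4galt1* to 73.3, *Slc35a2* to 7.34 and *Slc34a2* to 2.10 RPKM. On that measure *Aqp5* was at 133, below *Slc2a1*, so the order of these neighbours depended on the length used. The correlation with the casein mean became 0.85 for *Slc30a2*, −0.21 for *Slc30a4*, 0.14 for *B4galt1* and −0.68 for *Ugp2* with the GC correction, and without gh03 and gh18 it became 0.22 for *Slc2a1*, 0.34 for *Slc34a2*, 0.90 for *Slc30a2*, 0.16 for *B4galt1*, 0.67 for *Slc35a2* and −0.65 for *Ugp2*. Because of the filter, the correlations of *Slc30a2* too are a description only. Without gh03 and gh18, its values and the casein mean were both higher in the Robo1+/+ libraries left than in the Robo1-/- ones.

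The genotypes share no replicate number in the labels, so the comparison was unpaired. Any pairing of littermate libraries could not be accounted for. Depth limits *Slc30a2* (77 reads in all libraries) and *Atp2b2* (6 reads).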

Other observations

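Other channel and pump genes of these processes also varied between libraries of a genotype; those named here were chosen after their values were seen. *Aqp1*, a water channel gene, had levels of 0.290, 16.2 and 5.62 RPKM in the Robo1+/+ libraries, against 17.7, 10.8 and 1.10 in the Robo1-/- libraries, so that gh03 and gh18 were the lowest of the 6. *Atp2c2*, a Golgi calcium and manganese pump gene known from mammary epithelium, had 9.61, 33.4 and 20.4 in Robo1+/+ libraries, against 26.2, 24.7 and 2.07 in the Robo1-/- libraries, with the same libraries lowest. Those are also the libraries with the highest mean casein level, although *Csn3* was lowest in gh03. *Aqp1* and *Atp2c2* transcripts have 54.85% and 57.68% G and C. With the GC correction, the deviation of gh18 went from −2.27 to −1.30 (log2) for *Aqp1* and from −3.28 to −1.53 for *Atp2c2*. *Aqp3* had 33.2, 100 and 64.0 in Robo1+/+ libraries, against 62.4, 26.9 and 19.3 in the Robo1-/- libraries, with gh18 the lowest and gh09 the highest.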
